A study of Mus musculus with 20 samples.

Results

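Hbb-bs and Hbb-bt are the adult beta-globin genes of the mouse, and their introns were followed in nascent RNA of uninduced and induced MEL (murine erythroleukemia) cells. The members were all introns whose tabulated transcript maps to the symbol Hbb-bs or Hbb-bt in the GENCODE release 21 annotation. That rule found 4 of the 68794 introns in the deposited tables: an upstream intron and intron 1 of Hbb-bs, and introns 1 and 2 of Hbb-bt. Of the 4, 3 had at least 10 reads in both conditions and could be tested. The upstream intron of Hbb-bs had reads in the induced condition only.

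MEL cells are a virus-transformed mouse line arrested as red cell precursors, which resume maturation when dimethyl sulfoxide (DMSO) is added. The uninduced cells were wild type and untreated. The induced cells were wild type and kept in 2% DMSO for 5 days. For each condition the labels list 4 long-read samples, which are 2 biological replicates run on 2 PacBio instruments (RSII and Sequel). RNA was taken from the chromatin fraction and depleted of polyadenylated RNA and ribosomal RNA, which leaves mostly transcripts still attached to the template. The other 12 of the 20 samples (cells with an integrated human HBB gene, and PRO-seq) were not analysed here.

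The deposited tables hold 1 line per intron and condition, so each condition is 1 pool of reads and no value per replicate was used. Every test below compares 2 pools, not 2 conditions, and every interval covers counting error only. The uninduced pool held 416379 intron observations and the induced pool 279371, and the overall spliced share was 86.1% in both. Genes of the erythroid marker list, which holds Hbb-bs and Hbb-bt too, went from 208.5 to 3162 reads per 100000 observations, with all 11 of its genes listed. Myb and Spi1, which are active in the undifferentiated line, together went from 159 to 4 reads, and Kit had no line. The neutrophil and monocyte list had 1 uninduced read and 0 induced reads, with 4 of its 5 genes lacking a line. The lymphoid and fibroblast lists (3 genes each) had no line. The 3 megakaryocyte genes had 106 and 220 reads: Itga2b went from 26 to 202 reads, Pf4 from 80 to 10 and Gp1ba from 0 to 8, and their part in the results below was not tested.

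Beta-globin pairs with alpha-globin and heme to form hemoglobin. In adult mouse red cells it comes from a pair of neighbouring genes that share one distant enhancer cluster, the locus control region. Each gene has a short first intron and a longer second intron, and both must be removed before the message leaves the nucleus. Where the spliceosome acts while RNA polymerase II is still transcribing, spliced RNA is already found on chromatin. Co-transcriptional splicing efficiency (coSE) is the share of an intron's reads that are spliced there. A splicing intermediate is taken here as an RNA after the first splicing step, with the upstream exon already cut free and not yet joined to the next. The sources used here do not say how it was recognised. NIC is the share of intermediates among intermediates plus spliced reads.

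Both genes lie on the minus strand of chromosome 7, 14.0 kb apart (GRCm38 coordinates, 1-based). Hbb-bs intron 1 is chr7:103827671-103827783 (113 nt) and Hbb-bt intron 1 is chr7:103813662-103813777 (116 nt), each between the first and second coding exon. Hbb-bt intron 2 is chr7:103812785-103813438 (654 nt). The second intron of the main Hbb-bs transcript, also 654 nt, has no line in the tables, because the transcript tabulated for Hbb-bs is a short one that ends in exon 2. The upstream intron, chr7:103827887-103828011 (125 nt), belongs to the 5′ UTR of that short transcript. It contains the start of the main Hbb-bs transcript at position 103827928, with 83 bases before the start and 42 bases from the start onward.

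**Figure D1:**
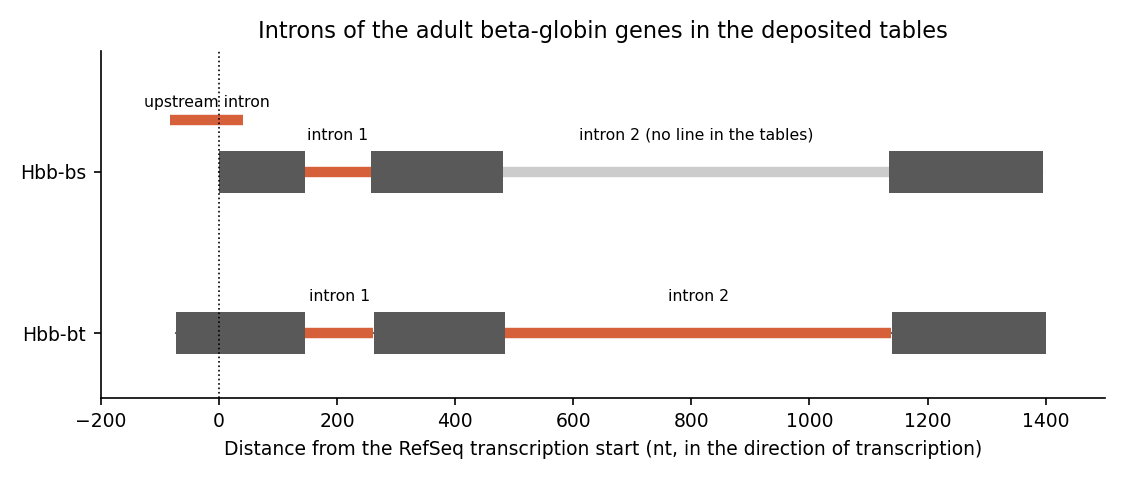
Exons (dark boxes, GENCODE main transcripts) and introns of Hbb-bs and Hbb-bt against the distance in nt from the RefSeq transcription start, with tabulated introns in orange; the GENCODE exon 1 of Hbb-bt begins before the RefSeq start. The upstream intron of Hbb-bs runs from 83 nt before the start to 41 nt after it, and intron 2 of Hbb-bs has no line in the tables.

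The deposited table gives the sequence at each splice site, printed here 5′ to 3′ because the copies are compared intron by intron. Capitals mark the first or last 2 intron bases. The 5′ site holds 3 exon and 6 intron bases, and the 3′ site 20 intron and 3 exon bases.
Hbb-bs and Hbb-bt intron 1, 5′ splice site: cagGTtggt
Hbb-bs and Hbb-bt intron 1, 3′ splice site: gtctatgtttccctttttAGgct
Hbb-bt intron 2, 5′ splice site: aggGTgagt
Hbb-bt intron 2, 3′ splice site: gttcttccatcttcccacAGctc
Hbb-bs upstream intron, 5′ splice site: ctgGTaagg
Hbb-bs upstream intron, 3′ splice site: gtgttgactcacaaccccAGaaa
Intron 1 therefore has the same splice sites in both genes. Its 3′ sequence occurs in these 2 introns alone among the 6537 introns with listed sequences, and its 5′ sequence in 10. The 5′ sequence of Hbb-bt intron 2 occurs in 40.

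The deposited splice site scores, whose program is not stated, place intron 1 low at its 5′ end and high at its 3′ end. The 5′ score was 8.08, with 35.3% of the 6537 introns lower, and the 3′ score 12.08, with 94.1% lower. Hbb-bt intron 2 scored 9.25 and 11.26 (60.3% and 87.2% lower). The upstream intron of Hbb-bs had a 5′ score of 9.68 (69.6% lower) and a 3′ score of 5.48 (10.7% lower). The medians over all listed introns were 8.78 and 8.70. GC content was 48.7% in Hbb-bs intron 1, 48.3% in Hbb-bt intron 1, 39.8% in Hbb-bt intron 2 and 51.2% in the upstream intron, beside a median of 43.9%.

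The coding sequences of the 2 genes are nearly one sequence in the reference. Over 441 coding bases they differ at 1, a change written C417T from Hbb-bs to Hbb-bt and counted from the start codon, which lies in exon 3. The surrounding 21 bases, with the differing base in capitals, are shown because it is the single coding base that tells the copies apart.
Hbb-bs: ctggagtggcCgctgccctgg
Hbb-bt: ctggagtggcTgctgccctgg
The 92 coding bases of exon 1 and the 223 of exon 2 are the same in both genes. A read spliced at intron 1 that covers these coding bases alone therefore carries no difference, and how such reads were divided between the genes is not stated. The reference strain carries Hbb-bs and Hbb-bt, while some other strains carry Hbb-b1 and Hbb-b2 in their place. The labels do not give the haplotype of these cells, and the tables have no line for Hbb-b1 or Hbb-b2.

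Beta-globin introns had more reads after induction than before it, in the smaller of the 2 pools. In the uninduced pool, Hbb-bs intron 1 had 29 reads, Hbb-bt intron 1 had 73 and Hbb-bt intron 2 had 78. These counts ranked 1822nd, 459th and 414th of the 57974 introns with a read in that pool. In the induced pool the 3 introns had 753, 271 and 146 reads, and the upstream intron of Hbb-bs had 453. The copy with fewer uninduced reads was thus the one with more induced reads. The 3 introns listed in both pools made up 0.0432% of uninduced observations and 0.419% of induced ones, and the upstream intron brought the induced share to 0.581%. Fewer cells making beta-globin and less beta-globin RNA per cell cannot be told apart in bulk samples.

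Hbb-bs intron 1 went from 6.96 to 269.5 reads per 100000 observations, a 38.7-fold ratio (95% exact counting interval 26.7 to 58.2). Of the 9982 introns with at least 10 uninduced reads, 1 had a higher ratio, intron 1 of the alpha-globin gene Hba-a2 (47.0-fold). Hbb-bt intron 1 went from 17.5 to 97.0 per 100000, a ratio of 5.53 (4.26 to 7.27), and 77 introns had a higher one. Hbb-bt intron 2 went from 18.7 to 52.3 per 100000, a ratio of 2.79 (2.11 to 3.72), and 240 introns had a higher one. Of the 3 beta-globin introns that could be compared, 2 were thus at least 4-fold higher, beside 1.24% of the 9982 introns. These ratios were not tested and are given with their counting intervals.

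Most of the gain in beta-globin reads was in unspliced RNA. At Hbb-bs intron 1, spliced reads went from 28 to 266, which is 14.2-fold (9.57 to 21.7) per observation. Unspliced reads there went from 1 to 487, a ratio of 726 whose interval, resting on the single uninduced read, is 129.7 to 28727. At Hbb-bt intron 1, spliced reads went from 48 to 75 (2.33-fold, 1.60 to 3.42) and unspliced reads from 25 to 196 (11.7-fold, 7.68 to 18.5). At Hbb-bt intron 2, spliced reads went from 58 to 56, a ratio of 1.44 whose interval (0.979 to 2.11) includes no change. Unspliced reads at that intron went from 20 to 90 (6.71-fold, 4.10 to 11.5). At all 3 introns the interval for unspliced reads lies wholly above that for spliced reads.

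Hbb-bs intron 1 had more unspliced reads than any other intron of the induced pool, and the upstream intron of Hbb-bs came next with 450. The alpha-globin intron Hba-a1 intron 1 followed with 349. Hbb-bt intron 1 was 7th of all introns by unspliced reads and Hbb-bt intron 2 was 14th. By all reads, Hbb-bs intron 1 was 3rd, the upstream intron 8th, Hbb-bt intron 1 was 23rd and Hbb-bt intron 2 was 74th. The 3 introns listed in both pools held 0.0795% of unspliced and 0.0374% of spliced observations before induction. After induction they held 2.00% and 0.165%. With the upstream intron, which has no uninduced line, the induced shares were 3.16% and 0.166%. That intron contains the main start site, and whether reads of the main transcript were counted there as unspliced is not stated.

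**Figure D2:**
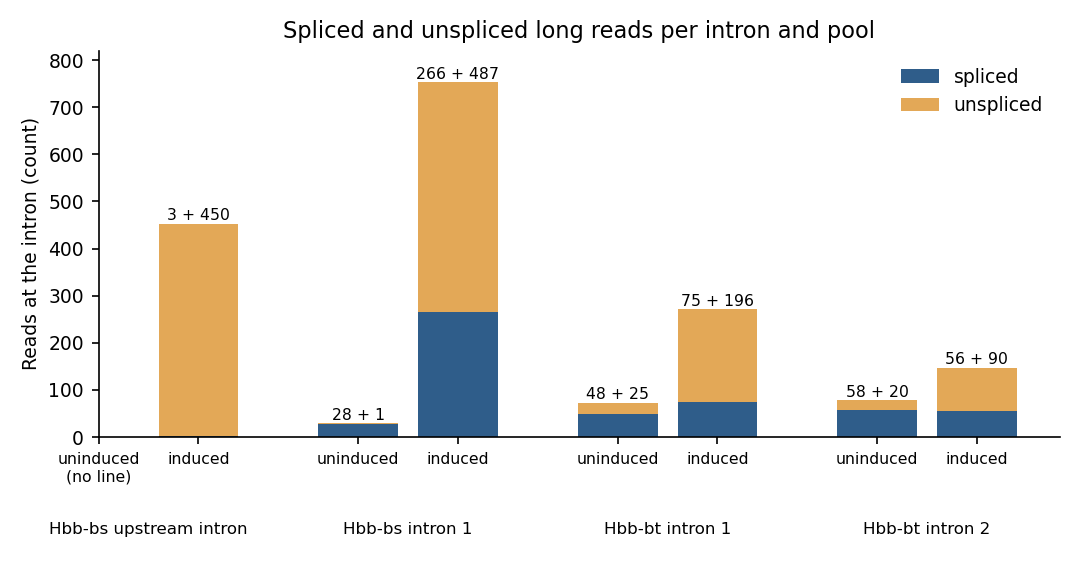
Spliced (blue) and unspliced (yellow) reads, as counts, at each beta-globin intron in the uninduced and the induced pool, with both counts above each bar. Hbb-bs intron 1 shows 28 spliced and 1 unspliced read before induction and 266 and 487 after it, and the upstream intron has no uninduced line.

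The spliced share fell at all 3 testable beta-globin introns. At Hbb-bs intron 1, 28 of 29 uninduced reads were spliced, a coSE of 0.966 (95% Wilson interval 0.828 to 0.994). After induction 266 of 753 were, a coSE of 0.353 (0.320 to 0.388). The difference was -0.612 (Newcombe interval -0.656 to -0.471), with an adjusted p of 2.31e-08 in the two-sided Fisher's exact test. It was the 5th largest fall among the 4403 introns tested and the 2nd smallest p.

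Hbb-bt intron 1 was already spliced in fewer reads before induction. There 48 of 73 uninduced reads were spliced, a coSE of 0.658 (0.543 to 0.756), and 75 of 271 induced reads, a coSE of 0.277 (0.227 to 0.333). The difference was -0.381 (-0.491 to -0.253, Fisher's exact test, adjusted p = 5.33e-06). Hbb-bt intron 2 had 58 of 78 uninduced reads spliced, a coSE of 0.744 (0.637 to 0.827), and 56 of 146 induced reads, a coSE of 0.384 (0.309 to 0.464). Its difference was -0.360 (-0.472 to -0.226, Fisher's exact test, adjusted p = 0.000140). At none of the 3 introns did the intervals of the 2 pools overlap.

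So 3 of 3 testable beta-globin introns fell, beside 1.25% of all 4403 introns tested (55 lower and 16 higher). The median difference was -0.381 over the 3 and 0 over all introns. A fall of at least 0.2 was seen at 5.34% of all introns. A long read can cover both introns of Hbb-bt, so these introns share molecules and are not separate tests of the gene. With uninduced reads drawn down at random to the induced total, in 1 draw, Hbb-bt intron 2 differed by -0.270 and no longer passed (Fisher's exact test, adjusted p = 0.0675).

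**Figure D3:**
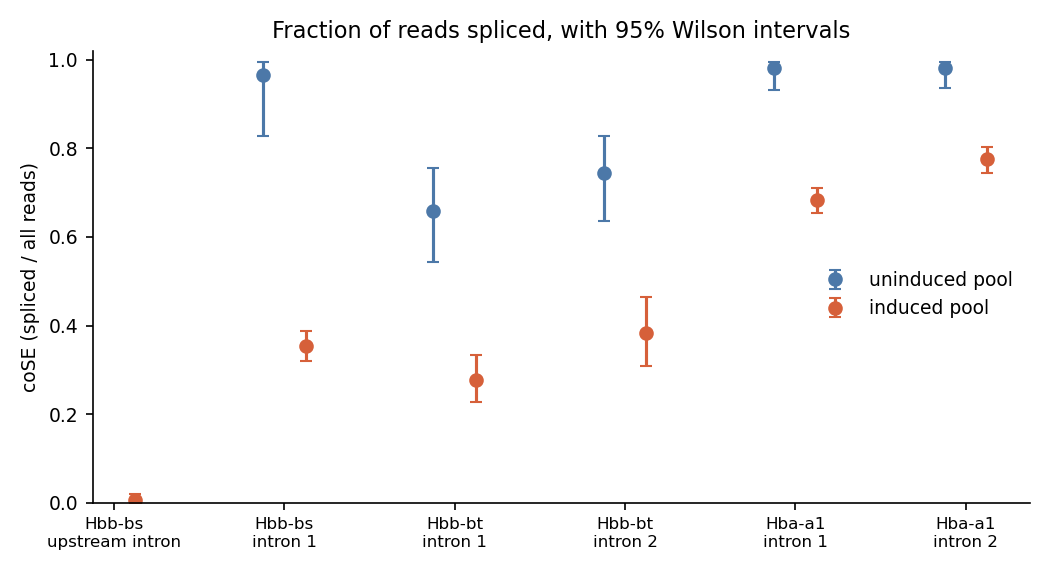
coSE (spliced reads over all reads, no unit) of beta-globin and Hba-a1 introns in the uninduced (blue) and induced (orange) pool, with 95% Wilson intervals for counting error. Every beta-globin intron in the induced pool lies at 0.384 or below and both Hba-a1 introns at 0.682 or above. The upstream intron of Hbb-bs contains the main start site, so its count may include reads of the main transcript.

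The copies differed from each other before induction although their intron 1 splice sites are the same. The coSE of intron 1 was higher in Hbb-bs than in Hbb-bt by 0.308 (0.139 to 0.426) in the uninduced pool. In the induced pool it was higher by 0.0765 (0.0112 to 0.137). Both intervals leave out 0, but the uninduced value rests on 29 Hbb-bs reads, 1 of them unspliced. Intron 1 of both genes was also added together, which does not depend on how the counted reads were divided between the copies. It still depends on whether reads matching both copies were left out, which is not stated. In the sum 76 of 102 uninduced reads were spliced (0.745) and 341 of 1024 induced reads (0.333). That difference was -0.412 (-0.492 to -0.315). It is smaller than the difference at Hbb-bs intron 1 alone and larger than that at Hbb-bt intron 1 alone.

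Within Hbb-bt, intron 1 was spliced less often than intron 2 in the induced pool (difference -0.107, interval -0.202 to -0.0132). In the uninduced pool the difference was -0.0861, and its interval (-0.228 to 0.0592) includes 0. Both intervals treat the reads of the introns as independent, although a long read can cover both introns. An interval that allows for shared reads was not computed. Transcription reaches intron 1 before intron 2. The longer intron was thus not the less spliced one in either pool by its point value.

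The upstream intron of Hbb-bs was almost never spliced. Of its 453 induced reads 3 were spliced, a coSE of 0.00662 (0.00225 to 0.0193). That is below intron 1 of the same transcript (difference -0.347, interval -0.382 to -0.311). Of the 6329 other introns with at least 10 induced reads, 43 (0.679%) had a lower coSE. Of 13 such introns with the same 5′ splice site sequence, the lowest coSE was 0.526. Since the interval contains the main start site, a read of the main transcript overlaps its last 42 bases, and whether such a read was counted as unspliced is not stated. Reads of the short transcript and reads of the main transcript cannot be told apart in this count.

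The same stretch in Hbb-bt has no annotated intron, and its sequence at both places is shown beside that of Hbb-bs for comparison. Positions count from 1 at the 5′ end of each stretch, and capitals mark the bases at the ends of the upstream intron.
Hbb-bs, 5′ splice site: ctgGTaagg
Hbb-bt, same place: ctgGCattg
Hbb-bs, 3′ splice site: gtgttgactcacaaccccAGaaa
Hbb-bt, same place: gtgttgacttgcaacctcAGaaa
From Hbb-bs to Hbb-bt the 5′ stretch carries T5C, A7T and G8T, so Hbb-bt has no GT at that place. The 3′ stretch carries C10T, A11G and C17T and keeps AG. The Hbb-bt stretches were read from the RefSeq promoter windows (GRCm38.p6), which hold 250 bases before and 50 after the start and were found for both genes.

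In the same windows, sequence motifs of globin promoters were searched on both strands. CACCC, a motif bound by Krüppel-like factors such as KLF1, begins 90 bases before the start of Hbb-bs and 140, 104 and 89 bases before that of Hbb-bt. CCAAT begins at 76 and 75 bases before the start on the coding strand, and in Hbb-bt the opposite strand holds it at 80 and 36. ATATAA, one form of the box that positions polymerase, begins at 30 and 29 bases. The motif of the red cell factor GATA1, searched as AGATAA, lies 210 bases before the start of Hbb-bs and was not found in the Hbb-bt window. No match overlaps another. The search covered 32851 RefSeq promoters of that length, and 57.5% of them hold CACCC. The share was 37.4% for the CCAAT motif, 9.82% for the polymerase box and 11.2% for the GATA1 motif. In Hbb-bs both the CCAAT match and the polymerase box lie inside the interval tabulated as its upstream intron.

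Splicing intermediates were found mainly at intron 2 of Hbb-bt. In the uninduced pool 4 of 57 reads there were intermediates, a NIC of 0.0702 (0.0276 to 0.167). In the induced pool 23 of 74 were, a NIC of 0.311 (0.217 to 0.423). The difference was 0.241 (0.106 to 0.361). Over the 2039 introns tested it ranked 4th by p and did not pass the threshold (Fisher's exact test, p = 0.000856, adjusted p = 0.436). So 0 of the 3 beta-globin introns passed for NIC, beside 0.0981% of introns with a higher NIC (2 of 2039). The interval for this single intron leaves out 0.

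At intron 1 intermediates were rare. Hbb-bs intron 1 had 0 of 26 in the uninduced pool, which allows a share of up to 11.5%, and 8 of 274 in the induced pool, a NIC of 0.0292 (0.0149 to 0.0565). Hbb-bt intron 1 had 0 of 45 and 0 of 75, which allow up to 6.67% and 4.00%. Neither passed the test (Fisher's exact test, adjusted p = 1 for both). After induction NIC at Hbb-bt intron 1 was below that at intron 2 (difference -0.311, interval -0.423 to -0.205). The upstream intron had 0 intermediates among 3 reads, too few to give a share.

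Intermediates at Hbb-bt intron 2 were frequent also among all introns of the induced pool. Of 3004 other introns with a NIC value, 79 (2.63%) had a higher one, and of the 186 with at least as many reads behind the value, 4 did. By count of intermediates the intron was 14th. The alpha-globin introns had the same order: Hba-a1 had a NIC of 0.00531 at intron 1 and 0.140 at intron 2, and Hba-a2 had 0.0179 and 0.399. At Hba-a1 intron 2 the rise from 0.0104 to 0.140 passed the test (Fisher's exact test, adjusted p = 0.0440). With all spliced and unspliced reads as the denominator it did not (Fisher's exact test, adjusted p = 0.0597). The induced NIC of Hbb-bt intron 2 was above that of Hba-a1 intron 2 by 0.171 (0.0733 to 0.286). NIC leaves out unspliced reads. Over all spliced and unspliced reads of the intron the shares were 0.158 and 0.126, with a difference of 0.0317 whose interval (-0.0243 to 0.103) includes 0. That denominator takes intermediates as part of those reads, which the sources used here do not state. It left out 2 introns that had more intermediates than reads.

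**Figure D4:**
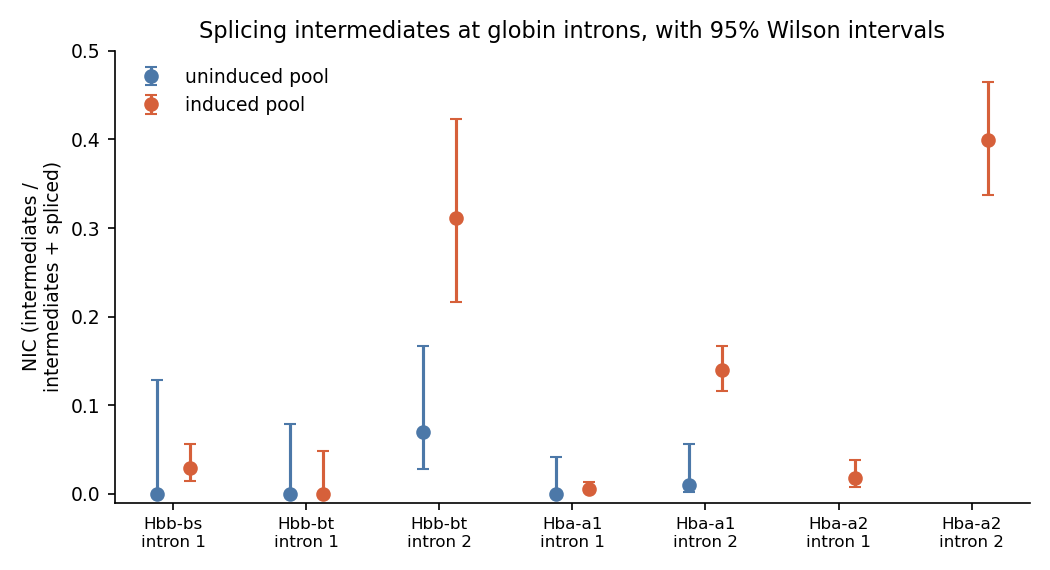
NIC (intermediates over intermediates plus spliced reads, no unit) of beta- and alpha-globin introns in the uninduced (blue) and induced (orange) pool, with 95% Wilson intervals for counting error. In the induced pool the second introns lie between 0.140 and 0.399 and the first introns at 0.0292 or below, and Hba-a2 has no uninduced value.

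Among all introns, the beta-globin introns moved from the body of the distribution to its low end. In the uninduced pool 58.6% of the 9979 other introns had a lower coSE than Hbb-bs intron 1, 14.2% a lower one than Hbb-bt intron 1 and 19.2% a lower one than Hbb-bt intron 2. After induction these shares were 3.59%, 2.73% and 3.95% of 6329. The place was similar among introns of like length. Among introns within 20% of its length, 6.29% of 477 were below Hbb-bs intron 1, 3.52% of 454 below Hbb-bt intron 1 and 4.49% of 602 below Hbb-bt intron 2. Among introns with both splice site scores within 1 unit, the shares were 2.40% and 1.92% of 208 and 2.98% of 403.

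In the induced pool, other introns with the same 9 bases at the 5′ splice site were spliced in a larger share of reads. The 4 others that share the site of intron 1 and have at least 10 induced reads had a coSE of at least 0.962. The 27 others that share the site of Hbb-bt intron 2 had a coSE of at least 0.625. In the uninduced pool Hbb-bs intron 1 differed in this: of 7 others with the same site, 6 were below it, while 1 was below Hbb-bt intron 1. Of 34 others with the site of Hbb-bt intron 2, 2 were below it.

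**Figure D5:**
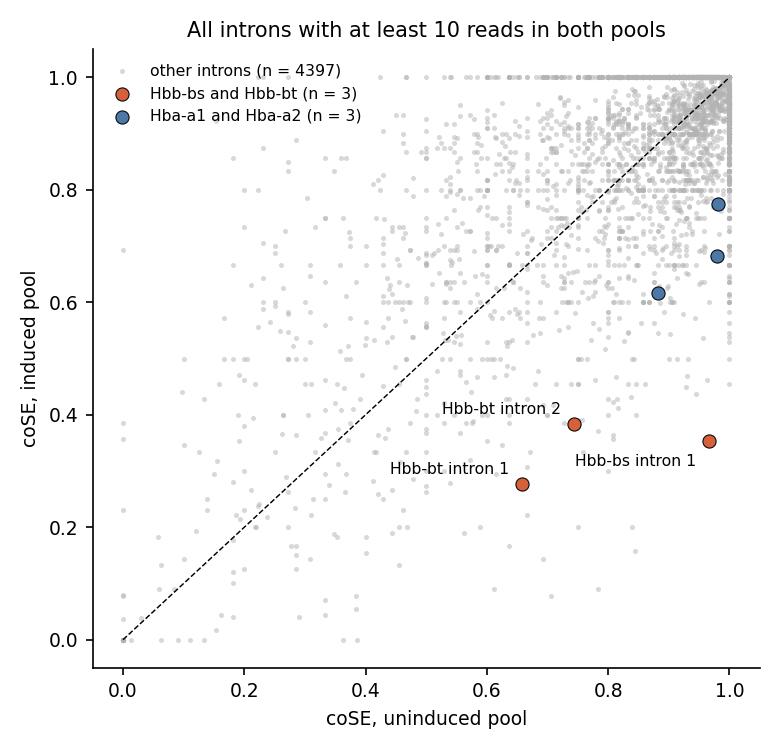
coSE in the induced pool against coSE in the uninduced pool (no unit) for the 4403 introns with at least 10 reads in both, 1 point per intron, with equal values on the dashed line. The 3 beta-globin introns (orange) lie below the line and below the 3 alpha-globin introns (blue).

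Alpha-globin, the partner chain, was also spliced in a smaller share of reads after induction. Hba-a1 intron 1 fell from 0.980 to 0.682 and intron 2 from 0.981 to 0.775 (Fisher's exact test, adjusted p = 9.37e-10 and 5.33e-06). Hba-a2 intron 1 had 0.882 and 0.616 and did not pass (Fisher's exact test, adjusted p = 0.553), with 17 uninduced reads. After induction the coSE of Hbb-bs intron 1 was below that of Hba-a1 intron 1 (difference -0.329, interval -0.372 to -0.284). Before induction the difference was -0.0147 (-0.153 to 0.0424). Hbb-bt intron 1 was below Hba-a1 intron 1 in both pools, with differences of -0.323 (-0.438 to -0.212) and -0.406 (-0.462 to -0.343).

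The other globin genes were seen little. Hbq1b, a theta-like globin gene, had 58 of 116 reads spliced at intron 1 in the induced pool and 2 of 6 in the uninduced pool. At intron 2 of Hbq1b, 13 of 43 induced reads were spliced, a coSE of 0.302. Hbq1a had 34 reads at each intron, in the induced pool alone, with a coSE of 0.235 and 0.176. Low induced coSE values were thus found at theta-like as well as beta-globin introns. The embryonic beta-like genes Hbb-y, Hbb-bh1 and Hbb-bh2 and the embryonic alpha-like gene Hba-x had no line. In all, 4 of the 10 other globin genes were in the tables, and 2 of their 3 tested introns fell, beside 1.25% of all introns. The third, Hba-a2 intron 1, had a difference of -0.267, between those of Hba-a1 intron 1 (-0.298) and intron 2 (-0.206).

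Genes of heme synthesis also had more reads in the induced pool. The list of hemoglobin assembly and heme synthesis had 10 of 11 genes in the tables, without Ahsp, the alpha-globin chaperone. Its reads went from 1049 to 5626. Of its 41 tested introns, from 5 genes, 0 passed in either direction, beside 1.25% lower over all introns, so the count is near the general share. Their median difference was -0.0357. Alas2, which makes the first heme precursor in erythroid cells, had 61 and 1536 reads and a coSE of 0.967 and 0.931, with no intron that had 10 reads in both pools.

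Regulators of the beta-globin locus gave few reads. Of 16 genes, 14 were in the tables, and 7 introns of Gata1 and Gfi1b were tested. Of these 0 passed, also near the general share, with a median difference of 0.0435. Gata1, the master factor of red cell genes, had 91 and 128 reads and a coSE of 0.780 and 0.891. Klf1, an activator of adult beta-globin, had 9 and 11 reads. Myb, which falls in maturing red cells, had 150 and 4 reads, and Sox6, a repressor of embryonic globin, had 24 and 174.

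Other introns that gained reads had a small median change in coSE. Apart from the beta-globin introns, 122 introns of 30 genes had a read share at least 4-fold higher in the induced pool, a set looked at after the values were seen. Of these, 5 fell past the threshold (4.10%, beside 1.25% of all introns) and 1 rose, and the median difference was -0.00799. Those that fell belonged to Hba-a1 and to Prdx2, a peroxiredoxin abundant in red cells. Tfrc, the transferrin receptor, had 12 of the 122 introns, with a median difference of 0.0418.

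Genes were also compared over their introns with at least 10 reads in both pools, keeping those with at least 20 such reads in each pool. Of the 819 genes kept, Hbb-bs, with 1 intron, had the largest fall and Hbb-bt the 5th, from 0.702 to 0.314. The Hbb-bs rank rests on 29 uninduced reads, and how reads were divided between the copies is not stated. Hba-a1 was 14th. Between Hbb-bs and Hbb-bt stood Actg1, Tubb5 and Rps28, which encode actin, tubulin and a ribosomal protein. The fall of both beta-globin genes added together (-0.405) was smaller than those of Actg1 (-0.574) and Tubb5 (-0.520). It was close to that of Rps28 (-0.403). Both beta-globin genes together went from 0.744 to 0.339. The genes nearest to that pair of values, by distance over the 2 pools among 817 genes, were Psmb6 (0.773 and 0.387, a proteasome subunit), Tubb5 (0.820 and 0.300) and Cct8 (0.667 and 0.391, a chaperonin subunit). Impdh2 (0.782 and 0.491, an enzyme of guanine nucleotide synthesis) and Hdac10 (0.566 and 0.366, a deacetylase) followed. Induced counts were below uninduced ones in 4 of these 5, such as 299 and 173 for Psmb6, while they were 180 and 1170 for beta-globin. The counts are not scaled to pool size, and the induced pool held 0.671 times as many observations as the uninduced one. A lower count thus need not be a lower share, as at Hdac10 (83 and 71). Prdx2, 8th by fall, had more induced reads too (215 and 691), with a coSE of 0.865 and 0.524.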

How the data were processed

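Long reads of chromatin RNA were analysed from a pair of tables that the authors deposited. The first gives raw counts of spliced and unspliced reads per intron and condition, per the file headers. The second gives counts of spliced reads and intermediates, the deposited fraction of intermediates (NIC), the GC percent of the intron, and a sequence with its score for each splice site. The submitters' processing notes name cutadapt, minimap2, SAMtools, bedtools and Bowtie and the builds mm10 and dm3, without roles. Which runs were pooled, and whether PCR copies were removed with the adapter's random bases, is not given in the sources used here.

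Positions were matched to GENCODE release 21 (GRCm38), adding 2 to each start and taking 1 from each end. All 8397 transcripts matched a symbol. coSE was computed as spliced over spliced plus unspliced reads for introns with at least 10 reads in both pools. Two-sided Fisher's exact tests ran over 4403 introns for coSE and 2039 for NIC (scipy 1.17.1), adjusted by Benjamini-Hochberg with calls under 0.05, after being tested on simulated data. Shares have 95% Wilson intervals, differences Newcombe intervals, and a count of 0 allows up to 3 counts. Read share is an intron's reads over all intron observations of its pool, so it depends on every other intron.

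The text names every beta-globin intron, the other globin genes, the 5 genes nearest in coSE, and up to 5 genes of each list (heme synthesis, locus regulators). Members, lists and tests were chosen with earlier results of these data known. Alternatives were other coverage minimums, a chi-square test, thinned reads, copies added together, the second table's spliced counts, another NIC denominator and another scaling. Promoter sequences came from RefSeq.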

Additional observations from a re-analysis of the deposited data

How the results depend on the processing

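Across 6 alternatives each, Hbb-bs intron 1 and Hbb-bt intron 1 kept a lower coSE past the threshold, with differences from -0.690 to -0.597 and from -0.397 to -0.295 (Fisher's exact or chi-square test, largest adjusted p 6.58e-05 and 0.0130). Intron 1 of both genes added together also passed, at -0.412. Hbb-bt intron 2 did so in 5 of 6, from -0.372 to -0.270. The exception was the thinned uninduced pool (-0.270, Fisher's exact test, adjusted p = 0.0675, range over the alternatives 4.68e-05 to 0.0675). In that random draw fewer uninduced reads entered and the difference itself was smaller. Which of these mattered was not tested. Without a coverage minimum, which lets in introns with fewer reads, 36 introns had a changed coSE over all introns, against 71. The cause was not tested.

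NIC at Hbb-bt intron 2 stayed short of the threshold in 3 of 3 alternatives (differences 0.106 to 0.241, Fisher's exact or chi-square test, adjusted p 0.116 to 1). Over all reads of the intron, with intermediates taken as part of the spliced and unspliced reads, they were 4 of 78 and 23 of 146. Whether they are part of those reads is not stated, and 2 introns with more intermediates than reads were left out. With that denominator 0 introns changed over the whole table, against 2, and the cause was not tested.

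Read share ratios depended on the reads counted: spliced reads gave 14.2 for Hbb-bs intron 1, 2.33 for Hbb-bt intron 1 and 1.44 for Hbb-bt intron 2, and unspliced reads 726, 11.7 and 6.71. Scaling by the median ratio of 4403 introns lowered the ratios of all reads to 32.5, 4.64 and 2.34.

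No paired analysis was possible because the deposited values give 1 number for each condition, with none for a single replicate. For the same reason no replicate was left out. The uninduced counts at the beta-globin introns were 29 to 78 reads, which limits the precision of every comparison with them.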
